A study of Homo sapiens with 18 samples.

Results

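The subunits of oxidative phosphorylation were measured by 108 probe sets for 75 genes, of 22283 probe sets on the HGU133A array (and of 11963 genes that its probe sets name by a single symbol). They were taken by name, as every probe set whose single gene symbol belongs to an NDUF, SDH, UQCR, COX4 to COX8 or ATP5 series or is CYC1 or CYCS. The rule uses names and no measured value, though the group was proposed with earlier results of these data known. Another 9 probe sets match these names but carry several gene symbols, and they were left out. By complex, the members were 35 probe sets for 28 genes of complex I, 7 for 3 genes of complex II, 10 for 7 genes of complex III, 20 for 13 genes of complex IV and 27 for 15 genes of complex V. CYCS had 1 probe set. The remaining 8 probe sets belong to 8 genes that the names also catch, namely the assembly factors NDUFAF1, NDUFAF3, NDUFAF4, NDUFAF5 and NDUFAF7, the ATP synthase inhibitor ATP5IF1, the pseudogene ATP5MC2P1 and the antisense transcript NDUFB2-AS1.

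MSTO-211H, a cell line of human malignant mesothelioma, was left untreated or exposed to 760 µM piroxicam (P), to 4.5 µg/mL cisplatin (C) or to the combination of the same doses (P/C). The former drug blocks cyclooxygenases and is used against inflammation, and the latter is a platinum agent that crosslinks DNA. RNA was taken after 8 h, with 2 arrays in each of the 4 groups, and after 24 h, with 2 arrays of untreated cells, 3 of P, 3 of C and 2 of P/C. All 18 arrays come from this single line, which limits every group as a model of the tumour.

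Oxidative phosphorylation turns the energy of nutrients into ATP at the inner mitochondrial membrane. Complexes I and II pass electrons to ubiquinone, complex III passes them on to cytochrome c, complex IV gives them to oxygen, and complex V uses the proton gradient that complexes I, III and IV build to make ATP. Most subunits are encoded in the nucleus, imported and assembled with the few that mitochondrial DNA encodes. Cytochrome c has a separate role, since its release into the cytosol activates caspases during apoptosis.

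Values are log2 signals, and a difference of 1 is a change of 2-fold. A probe set is called bright here when its signal was at least 100 (log2 6.64) on at least 25% of the arrays. Of the members 83 were bright (76.9%), for 66 genes, against 17.5% of all probe sets, and 74 of the 83 reached that signal on every array. The 25 dim members had a median level of 2.75, close to the median of all probe sets on an array (2.72 to 2.82), so their changes are given only where a test called them.

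The share of probe sets with a signal of at least 100 was 14.9% to 16.7% per array. The difference between 3′ and 5′ probe sets was 0.07 to 0.68 for GAPDH and 0.80 to 1.88 for ACTB. Of 12 mesothelial markers 3 were bright, KRT8, KRT18 and VIM, while the defining markers MSLN (2.30), CALB2 (3.49) and WT1 (5.12) stayed below the limit. None of 5 leukocyte markers and none of 7 endothelial and fibroblast markers was bright. In bulk RNA fewer cells of a kind and less RNA per cell cannot be told apart. Of the 24 h arrays, C replicate 1 lay apart from the other C arrays for the subunits. The 2 P/C arrays lay apart from each other, and with 2 arrays it cannot be told which of them departs. Against the mean of the 2 untreated 24 h arrays, the median difference of the 83 bright members was −0.33 on P/C replicate 1 and −0.05 on P/C replicate 3. It was 0.17 on C replicate 1, −0.08 on C replicate 2 and −0.15 on C replicate 3. On the 3 P arrays it was −0.05 to −0.09. The median level of all members had a pooled SD of 0.144 between arrays of a group.

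**Figure D1:**
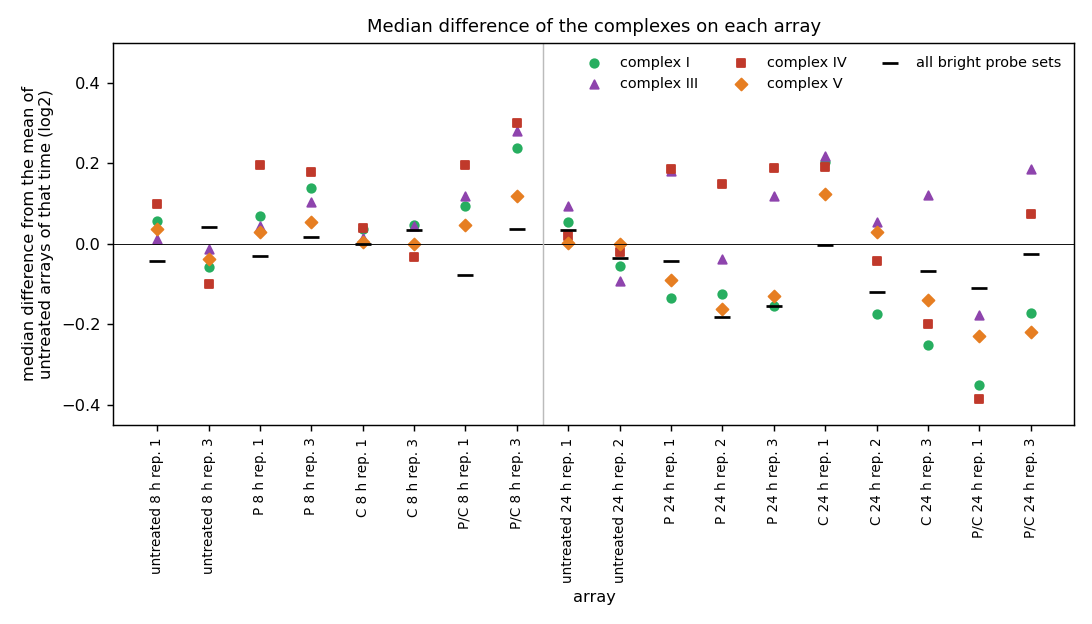
For each of the 18 arrays (horizontal axis), the median log2 difference from the mean of the untreated arrays of the same time (vertical axis), over the bright probe sets of complexes I, III, IV and V and, as black dashes, over all bright probe sets. Complex IV lies at −0.39 on P/C 24 h replicate 1 and at 0.07 on P/C 24 h replicate 3, and from 0.19 to −0.20 over the C 24 h arrays.

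The brighter subunits were steady transcripts. Over the 18 arrays the bright members had a median IQR of 0.24, against 0.40 for all 3893 bright probe sets, and 45 of the 83 (54.2%) stayed under an IQR of 0.25, against 21.5%. Brighter probe sets vary less, so levels were matched by range. Between mean levels of 8 and 10 the median IQR was 0.24 for 43 members and 0.34 for 1470 probe sets, and 25 of these members (58.1%) fell under 0.25, against 23.9%. At mean levels of 10 and more, 18 of 21 members fell under it (85.7%), against 67.3% of 504 probe sets. Between 6 and 8, where the median IQR was 0.39 for 19 members and 0.50 for all, 2 members fell under it (10.5%), against 7.61% of 1905 probe sets, a share near the background. The narrowest spreads belonged to complex V, in the 3 bright probe sets of ATP5F1C, the gamma subunit of the rotor (0.10 to 0.11), and in ATP5F1A, the alpha subunit (0.11). NDUFB4, an accessory subunit of complex I, was as narrow (0.10). The widest were ATP5MG 208745_at (0.77), NDUFA5 (0.70), ATP5MJ 202279_at (0.66), the assembly factor NDUFAF3 (0.61) and NDUFV1 (0.59).

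**Figure D2:**
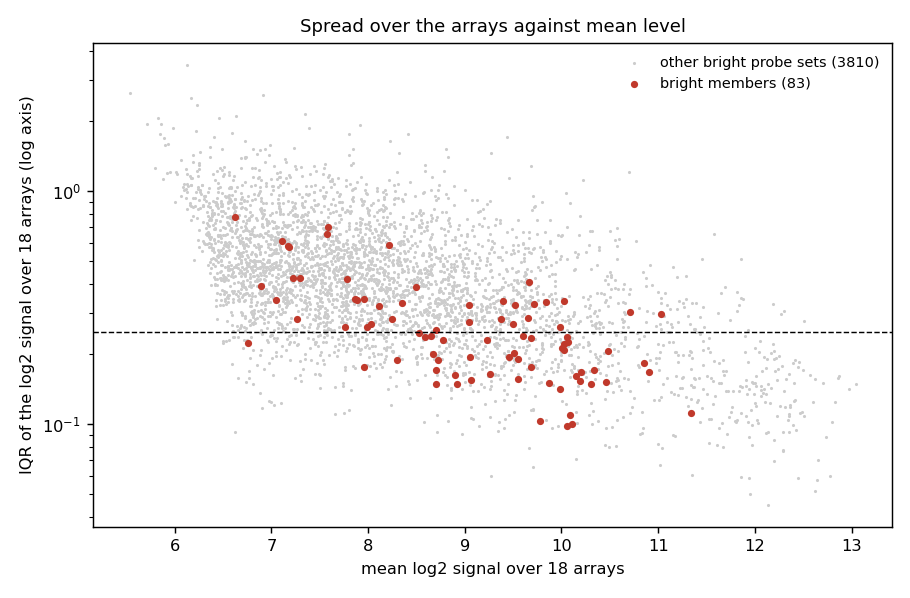
The IQR of the log2 signal over the 18 arrays (vertical, log axis) against the mean log2 signal (horizontal) for 3893 bright probe sets, with the 83 bright members in red. The dashed line is an IQR of 0.25, and 45 members lie under it.

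P at 24 h was compared with untreated cells first, since it changed the most probe sets. Few subunits changed, and they did not change one way. With limma, 2 members rose and 5 fell at an adjusted p of at most 0.05 (Benjamini-Hochberg over all 22215 probe sets that are not controls, 3 P against 2 untreated arrays), which is 7 of 108. Over all probe sets 1.66% rose and 4.35% fell, shares near those of the members. Over the bright ones 2.88% rose and 13.7% fell, and of the 83 bright members 5 passed in either direction (6.02%). With a change of at least 2-fold required as well, 1 member rose and none fell, against 0.851% and 2.67% of all probe sets. At an unadjusted p under 0.05 there were 10 higher and 17 lower members, which is 25% of them, against 18.3% of all probe sets and 38.9% of the bright ones, and 17 members without untreated replicate 2. The median log2 fold change of the bright members was −0.06, against −0.14 for all bright probe sets, and it turned to 0.04 with quantile normalization and to 0.11 with the arrays centred on the bright probe sets, a centring that moved the median of all probe sets from 0.03 to 0.20.

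The rise with P was that of NDUFV1 (208714_at), which encodes the flavoprotein core subunit that takes electrons from NADH. At 24 h it read 8.09 and 7.33 in untreated cells, 8.71, 8.81 and 8.77 with P, 7.97, 8.45 and 8.53 with C, and 8.55 and 8.60 with P/C. The P arrays were the highest of all 18 and both P/C arrays lay above both untreated ones, while the untreated arrays differed by more than any other pair of a 24 h group. The log2 fold change with P was 1.05 ± 0.22 (SE, 3 P against 2 untreated arrays, limma adjusted p = 0.0136). With C it was 0.61 (adjusted p = 0.487) and with P/C 0.87 ± 0.24 (adjusted p = 0.092), and these 3 values share the same untreated arrays. At 8 h NDUFV1 read 7.95 and 7.52 in untreated cells, 8.31 and 8.01 with P, 7.70 and 7.89 with C, and 8.50 and 8.20 with P/C. The P and P/C arrays of 8 h lay above the untreated ones too, with no test passed. The call with P at 24 h was lost without untreated replicate 2, the lowest of all 18 arrays, where the log2 fold change was 0.67 (adjusted p = 0.209).

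NDUFB11, an accessory subunit of the membrane arm of complex I, was the other riser with P. It read 7.83 and 7.57 in untreated cells, 8.03, 8.27 and 8.13 with P, 8.20, 8.07 and 8.14 with C, and 7.85 and 7.88 with P/C. The P and C arrays lay in the same range, all above the untreated and P/C arrays. The log2 fold change was 0.44 with P (adjusted p = 0.0341), 0.43 with C (adjusted p = 0.42) and 0.16 with P/C. NDUFA9, an accessory subunit next to the ubiquinone site, went the other way. It read 9.16 and 9.05 in untreated cells, 8.65, 8.43 and 8.53 with P, 9.30, 8.92 and 8.93 with C, and 8.90 and 8.59 with P/C. All P arrays lay below both untreated ones, and the P and P/C arrays overlapped. The log2 fold change with P was −0.57 ± 0.14 (limma adjusted p = 0.0264). With P/C it was −0.36 (adjusted p = 0.27). Of the core subunits of complex I, NDUFS3 (−0.66, adjusted p = 0.0763), NDUFS1 (−0.46, adjusted p = 0.119) and NDUFV2 (−0.27, adjusted p = 0.619) had negative values with P, beside the rise of NDUFV1. NDUFA5, an accessory subunit that the study itself chose as changed on these samples, read 8.18 and 7.81 in untreated cells and 7.32, 7.32 and 6.27 with P. Its groups did not overlap, but P replicate 3 lay far below the other P arrays, and the log2 fold change of −1.02 ± 0.40 did not pass (adjusted p = 0.173), nor did that with P/C (−0.92, adjusted p = 0.351). The smallest values of complex I were those of NDUFS6 with P (−0.0045) and NDUFB5 with P/C (0.01).

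In complex V 1 probe set fell with P. ATP5MJ (202279_at), a small subunit of the membrane part, read 7.96 and 7.92 in untreated cells, 6.92, 7.04 and 7.15 with P, 8.33, 7.48 and 7.59 with C, and 7.03 and 6.68 with P/C. All arrays that received piroxicam for 24 h lay below all the other 13 arrays. The log2 fold change was −0.90 ± 0.21 with P (adjusted p = 0.0209), −0.14 with C (adjusted p = 0.951) and −1.08 ± 0.23 with P/C (adjusted p = 0.0355). The other probe set of ATP5MJ, 210532_s_at, gave −0.10 with P (adjusted p = 0.793) and −0.34 with P/C (adjusted p = 0.318), so the fall was seen by 1 of its 2 probe sets. ATP5IF1, the protein that blocks ATP hydrolysis by complex V, read 7.53 and 7.58 in untreated cells, 6.89, 6.95 and 6.97 with P, 7.48, 7.36 and 7.16 with C, and 7.31 and 7.02 with P/C. The P arrays were the lowest of all 18, and its log2 fold change with P was −0.62 ± 0.14 (adjusted p = 0.0207). With P/C it was −0.39 (adjusted p = 0.247). The value farthest from 0 in complex V did not pass. ATP5MG 208745_at, of the membrane part, read 6.33 and 7.62 in untreated cells and 5.15, 6.30 and 5.99 with P, so that its untreated arrays spread widely and only just stayed above the P arrays. It had −1.17 with P (adjusted p = 0.147) and −1.07 with P/C (adjusted p = 0.306), while the other 3 bright probe sets of this gene had −0.06 to −0.21 with P. The smallest value of complex V with P was 0.02, at ATP5ME 207335_x_at.

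A pair of dim probe sets completed the calls with P. NDUFA6 202000_at fell from 2.92 and 3.21 to 2.50, 2.66 and 2.47 (−0.52, adjusted p = 0.0412), and the bright probe set of this accessory subunit of complex I gave −0.48 (adjusted p = 0.306). NDUFAF7 fell from 3.67 and 3.12 to 2.48, 2.27 and 2.73 (−0.90, adjusted p = 0.0323). Both lie near the median of all probe sets, where small signals carry little weight. The 7 calls with P depended on the processing, as given in the closing section, and on single arrays. Without untreated replicate 2 all 7 were lost (adjusted p = 0.0692 to 0.375), and without untreated replicate 1 NDUFV1 and NDUFB11 remained (lost at 0.0536 to 0.28). Without P replicate 1 NDUFV1, NDUFA9 and NDUFB11 remained (lost at 0.0566 to 0.0942), without P replicate 2 NDUFV1, ATP5IF1 and the dim NDUFA6 (0.0515 to 0.101), and without P replicate 3 NDUFV1, ATP5MJ and the dim NDUFAF7 (0.0515 to 0.121).

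**Figure D3:**
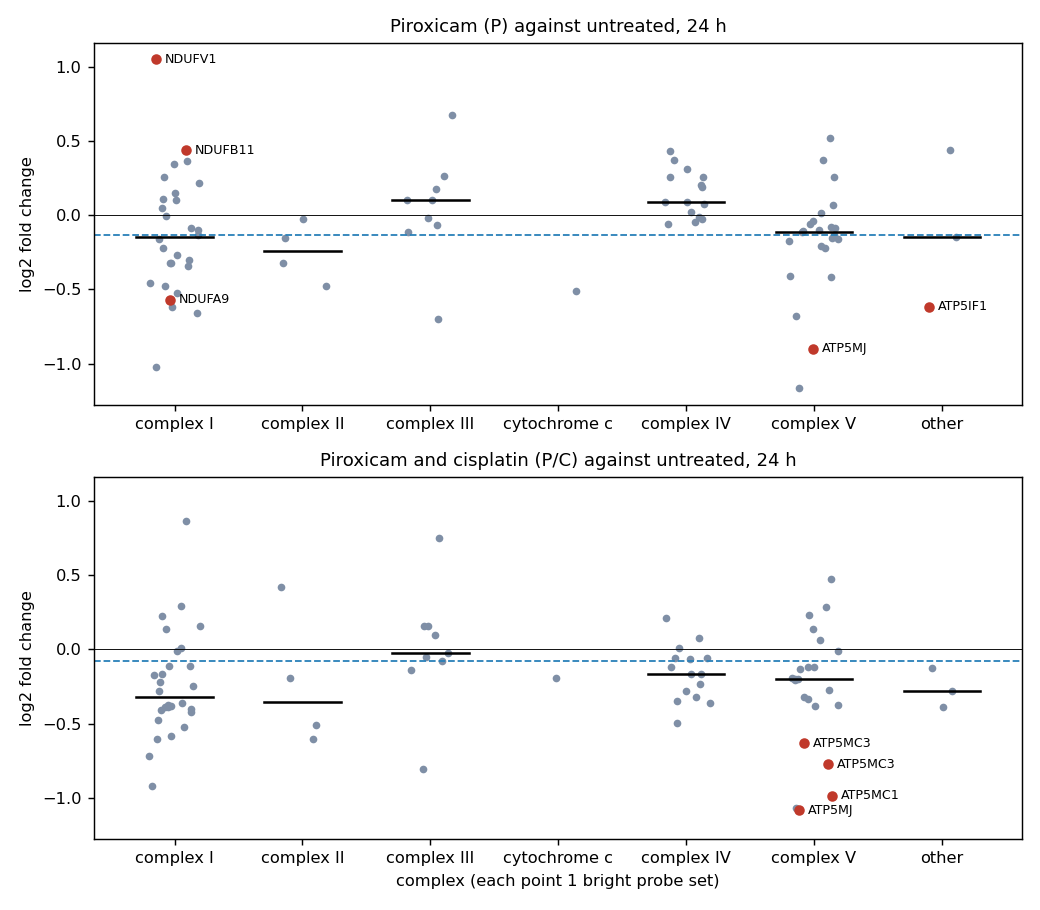
The log2 fold change of each bright member at 24 h (vertical) by complex (horizontal), with P above and with P/C below. Red points passed an adjusted p of 0.05, black bars are medians of a complex and the blue dashed line is the median of all bright probe sets (−0.14 with P, −0.08 with P/C).

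By complex, the medians with P at 24 h lay on both sides of 0. Complex I (28 bright probe sets) had −0.15, complex II (4) −0.24 and complex V (23) −0.11, while complex III (9) had 0.10 and complex IV (15) 0.09, with 11 of the 15 probe sets of complex IV positive. With quantile normalization complex I turned to 0.01 and all 15 of complex IV were positive, and with the arrays centred on bright probe sets complexes I and V turned to 0.02 and 0.06. Without untreated replicate 2 or P replicate 1 the median of complex III was 0.00. In complex III UQCR10, a small subunit near cytochrome c1, read 9.66 and 9.50 in untreated cells, 9.06, 8.81 and 8.78 with P, 9.27, 8.83 and 8.81 with C, and 8.51 and 9.03 with P/C. The untreated arrays were the highest of all 18, and the log2 fold changes were −0.70 with P (adjusted p = 0.0631), −0.61 with C (adjusted p = 0.443) and −0.81 with P/C (adjusted p = 0.0903). The core subunit UQCRC1 had 0.68 with P (adjusted p = 0.173) and 0.75 with P/C (adjusted p = 0.224), with untreated arrays at 9.85 and 8.82. CYC1, cytochrome c1, varied little (IQR 0.15) and had 0.26 with P (adjusted p = 0.227). UQCRB 209066_x_at had the smallest value of complex III with P, −0.02.

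CYCS, the electron carrier itself, read 10.87 and 11.39 in untreated cells, 10.62, 10.76 and 10.46 with P, 11.04, 10.99 and 11.01 with C, and 11.07 and 10.80 with P/C. The P arrays were the lowest of all 18, but the untreated arrays lay far apart, and the log2 fold change of −0.51 ± 0.15 missed the threshold (adjusted p = 0.0604). With C it was −0.11 (adjusted p = 0.936) and with P/C −0.19 (adjusted p = 0.71). Of 25 probe sets for its partners in apoptosis, among them APAF1, CASP9 and BAX, none passed with P or with P/C in limma. In each comparison 4 had an unadjusted p under 0.05. This is 16% of them, near the shares of all probe sets, which are given above for P and below for P/C.

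In complex II, which also works in the tricarboxylic acid cycle, no probe set passed. SDHA, its flavoprotein, had −0.15 with P (adjusted p = 0.822) and 0.42 with P/C (adjusted p = 0.53), where its P/C arrays read 9.47 and 8.72. SDHD, a membrane anchor, had −0.48 with P (adjusted p = 0.373) and −0.19 with P/C. The bright probe sets of SDHC, the other anchor, had −0.03 and −0.32 with P, and −0.51 and −0.61 with P/C. In complex IV COX4I1, a subunit of its nuclear-encoded shell, had 0.43 (adjusted p = 0.113) at 202698_x_at and 0.02 (adjusted p = 0.972) at 200086_s_at. COX6A1 had 0.37 with P (adjusted p = 0.157), and COX6B1, which binds where cytochrome c docks, had −0.01 (adjusted p = 0.988).

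With P/C at 24 h no member rose and 5 fell at an adjusted p of at most 0.05 in limma. Over all probe sets 0.666% rose and 0.891% fell, and over the bright ones 1.1% rose and 2.72% fell. With the 2-fold limit 1 member fell and none rose, against 0.626% and 0.482%. At an unadjusted p under 0.05 there were 3 higher and 21 lower members, which is 22.2%, against 14.7% of all probe sets and 29.4% of the bright ones, and 14 members without untreated replicate 2. Of the 5 falls 4 were bright, and these 4 belonged to complex V, of which 3 were probe sets for its c subunit. The c subunit forms the ring that proton flow turns in the membrane, and ATP5MC1, ATP5MC2 and ATP5MC3 encode the same mature protein with different import sequences.

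ATP5MC3 fell at both of its probe sets. At 207508_at it read 9.69 and 10.16 in untreated cells, 9.41, 9.61 and 9.51 with P, 10.09, 9.86 and 9.64 with C, and 9.11 and 9.19 with P/C. At 207507_s_at the untreated arrays read 9.98 and 10.32 and the P/C arrays 9.44 and 9.59. The P/C arrays were the lowest of all 18 at both. The log2 fold changes with P/C were −0.77 ± 0.16 (adjusted p = 0.0355) and −0.63 ± 0.14 (adjusted p = 0.0417), and those with P were −0.41 (adjusted p = 0.131) and −0.22 (adjusted p = 0.399).

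ATP5MC1, which the study also chose as changed on these samples, so that its direction is not independent evidence, read 7.10 and 7.40 in untreated cells, 6.51, 6.68 and 6.51 with P, 7.55, 6.97 and 6.73 with C, and 6.25 and 6.27 with P/C. The P/C arrays were the lowest of all 18 and the P arrays came next. Its log2 fold change was −0.99 ± 0.23 with P/C (adjusted p = 0.0494) and −0.68 ± 0.21 with P (adjusted p = 0.075). ATP5MC2 did not follow. It read 9.98 and 9.78 in untreated cells, 10.36, 10.32 and 10.54 with P, 10.27, 9.97 and 9.99 with C, and 9.87 and 10.35 with P/C. Its P arrays lay above the untreated ones and its P/C arrays overlapped them, with log2 fold changes of 0.52 ± 0.17 with P (adjusted p = 0.0933) and 0.23 with P/C (adjusted p = 0.683). Whether the 3 genes differ from each other was not tested.

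**Figure D4:**
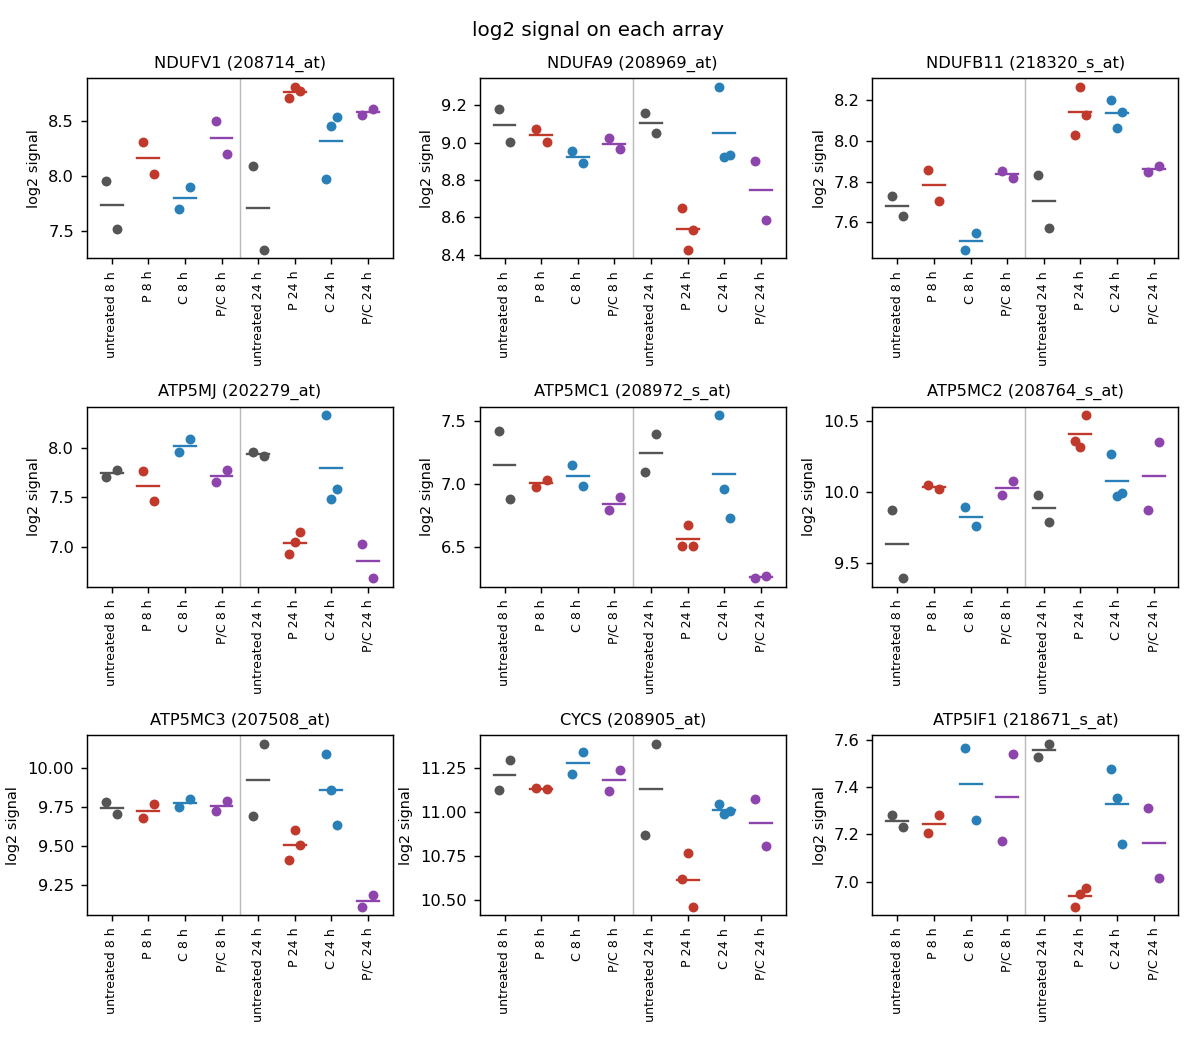
The log2 signal of 9 members on each array (points) with the group mean (bars), for the 8 groups on the horizontal axis and with a separate vertical scale in each panel. The 3 P and 2 P/C arrays of 24 h are the 5 lowest for ATP5MJ 202279_at and for ATP5MC1, and the 3 P arrays are the highest for NDUFV1.

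The upstream sequence of these genes is shown because ATP5MC1 and ATP5MC2, which make the same protein, had values of opposite sign with P, while ATP5MJ and NDUFV1 had the largest called fall and rise among the bright members. Of the 75 member genes 65 had an entry in the RefSeq promoter table (GRCh38.p14), with 81 windows of 300 bases, from 250 before to 50 after a start. Printed here are the 120 bases before the start, on the strand of the gene, with any match to the searched motifs in capitals. ATP5MC2 has 3 listed starts, and the one with a match is shown. ATP5MC3 has no entry, so its sequence cannot be shown.
ATP5MC1 (chr17:48892667-48892786, plus strand): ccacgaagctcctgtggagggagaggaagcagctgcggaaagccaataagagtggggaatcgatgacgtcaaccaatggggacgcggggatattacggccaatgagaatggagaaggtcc
ATP5MC2 (chr12:53676084-53676203, minus strand): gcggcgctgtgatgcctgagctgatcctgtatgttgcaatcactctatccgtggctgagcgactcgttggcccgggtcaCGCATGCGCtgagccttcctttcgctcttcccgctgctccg
ATP5MJ (chr14:103921530-103921649, minus strand): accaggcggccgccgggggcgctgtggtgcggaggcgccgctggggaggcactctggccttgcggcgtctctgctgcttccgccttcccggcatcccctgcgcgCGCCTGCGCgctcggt
NDUFV1 (chr11:67606816-67606935, plus strand): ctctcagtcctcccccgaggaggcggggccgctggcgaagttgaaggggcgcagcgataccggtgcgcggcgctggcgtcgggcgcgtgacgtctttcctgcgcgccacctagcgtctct
The capitals in ATP5MC2 and ATP5MJ are matches to GCGCANGCG, a motif like that of NRF1, a regulator of genes for respiration. It was searched on both strands, and it was held by 21 of the 81 member windows (25.9%) and by 7.52% of all 35116 windows. CCGGAAGT, like an ETS or GABP motif, was in 12.3% of the member windows and 4.14% of all. AAGATGGC, like a YY1 motif, was in 14.8% and 2.89%, and AAGGTCA, like an ERR motif, in 13.6% and 3.92%. In ATP5MJ a match to AAGGTCA, on the other strand, begins at the last base printed and runs past the start, and it does not overlap the match in capitals. The windows shown for ATP5MC1 and NDUFV1 hold none of the 4 motifs. A match is a run of letters and not a measured binding site.

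The other fall with P/C was that of the dim NDUFA6 202000_at (−0.76, adjusted p = 0.0317), whose P/C arrays read 2.28 and 2.34. NDUFB3, a membrane subunit of complex I, read 8.22 and 8.06 in untreated cells and 7.43 and 7.42 with P/C, the lowest of all 18 arrays, and its log2 fold change of −0.72 missed the threshold (adjusted p = 0.0738). ATP5F1A had the smallest value of complex V with P/C (−0.01). The calls with P/C rested on few arrays. Without untreated replicate 2 all 5 were lost (adjusted p = 0.263 to 0.383), as they were without P/C replicate 3 (0.105 to 0.167). Without untreated replicate 1 both probe sets of ATP5MC3 remained (lost at 0.05 to 0.106), and without P/C replicate 1 ATP5MJ remained (0.0645 to 0.115). In a fit of the 4 arrays of this comparison alone none passed (adjusted p = 0.189 to 0.316).

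With P/C at 24 h 64 of the 83 bright members had negative values. Members share the same arrays, so counts of signs, here and elsewhere, are not counts of independent results. The median log2 fold change of the bright members was −0.20, against −0.08 for all bright probe sets. Complex I had −0.32, complex II −0.35, complex III −0.02, complex IV −0.17 and complex V −0.20, and complex III turned to 0.05 with quantile normalization. Without P/C replicate 1 the median of the bright members was −0.05, with 48 of 83 negative, and that of complex IV turned to 0.07, that of complex III to 0.19, and those of complexes I and II moved to −0.17 and −0.11. Without P/C replicate 3 the bright members had −0.33 and complexes III and IV −0.18 and −0.39. Complex IV was low on 1 of the 2 P/C arrays. ATP5MC1 and ATP5MC3 were low on both, but they were named for passing the test on these same arrays. Their contrast with complex IV is therefore no separate evidence.

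P/C was compared with each single drug to see where the combination differs. No member passed against P in limma, nor did any probe set (0%), and 16 members had an unadjusted p under 0.05, 4 higher and 12 lower, which is 14.8%, against 12.8% of all probe sets and 20.8% of the bright ones. That number was 2 without P/C replicate 1, 31 without P/C replicate 3, 9 without P replicate 2 and 8 without P replicate 3. The closest was COX7A2L, a factor that joins complexes III and IV into supercomplexes. It read 8.63 and 8.68 in untreated cells, 8.95, 9.05 and 8.90 with P, 8.64, 8.56 and 8.65 with C, and 7.87 and 8.44 with P/C. Both P/C arrays lay below all P, C and untreated arrays of 24 h, and the difference from P was −0.81 ± 0.14 (adjusted p = 0.0563). All 15 bright probe sets of complex IV were lower with P/C than with P, with a median of −0.33, but without P/C replicate 1 it was 9 of 15 and −0.02. Against C no member and no probe set passed in limma (0%), and 19 members had an unadjusted p under 0.05, of which 18 were lower with P/C (11 members without C replicate 1). This is 17.6%, against 8.87% of all probe sets and 16.6% of the bright ones. The smallest adjusted p of a member was 0.155, at ATP5MC3 207507_s_at (−0.72). Without P/C replicate 1 and C replicate 1 the median difference of the bright members from C was 0.01, against −0.17 with them.

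With C at 24 h no member passed in limma, against 0.009% of all probe sets, and 9 had an unadjusted p under 0.05, 7 higher and 2 lower, which is 8.33%, against 8.24% of all probe sets and 15.1% of the bright ones. The number was 4 without untreated replicate 2, 19 without C replicate 1 and 6 without C replicate 3. The smallest adjusted p was that of NDUFB11. Measured against adding up the separate P and C effects, P/C departed past the threshold for no member and for no probe set in limma (0%), with 13 members at an unadjusted p under 0.05 (8 without P/C replicate 1 and 21 without P/C replicate 3). Of all probe sets 8.59% had such a p, and of the bright ones 15.2%. COX7A2L (−0.77) and NDUFB11 (−0.71) had the smallest adjusted p, 0.335 each.

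At 8 h no member passed in limma with P, with C or with P/C, where 0.054%, 0% and 0.099% of all probe sets did. At an unadjusted p under 0.05 there were 2, 1 and 6 members, all higher. These are 1.85%, 0.926% and 5.56% of the members, below the 6.04%, 1.96% and 6.61% of all probe sets in the same comparisons, and with P/C 12.2% of the bright ones had such a p. The median of the bright members was 0.10 with P, 0.03 with C and 0.17 with P/C, against −0.01, 0.02 and −0.02 for all bright probe sets. All 15 bright probe sets of complex IV were positive with P (median 0.16) and with P/C (median 0.28), against the same 2 untreated arrays. Between these 2 arrays complex IV itself differed by 0.20, at 0.10 on replicate 1 and −0.10 on replicate 3. Leaving out single arrays, 12 to 14 of the 15 were positive with P and 14 to 15 with P/C, and without untreated replicate 3 the medians were 0.11 and 0.17. Without untreated replicate 3 the members at an unadjusted p under 0.05 were 0 with P and 2 with P/C, and without untreated replicate 1 they were 9 and 10. The members with an unadjusted p under 0.05 with P/C were ATP5PD and ATP5PF, of the stalk of complex V, NDUFV1 and NDUFC1 of complex I, and dim probe sets of NDUFAF1 and NDUFA5.

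Time was compared in untreated cells and in the effects. In untreated cells at 24 h against 8 h no member passed in limma, against 0.009% of all probe sets, and 7 had an unadjusted p under 0.05, all higher at 24 h (3 to 6 leaving out single arrays). This is 6.48%, against 4.21% of all probe sets and 7.53% of the bright ones. Of the bright members 74 of 83 were higher at 24 h, with a median of 0.15, against 0.02 for all bright probe sets. The largest of them was SDHC 210131_x_at, which read 6.78 and 6.72 at 8 h and 7.49 and 7.72 at 24 h. Time and culture cannot be told apart here, since each time has its own untreated arrays. A difference of an effect between the times subtracts the change in untreated cells, so the rise given above enters it with its sign reversed. The effect of P/C was lower at 24 h than at 8 h for 73 of 83 bright members. The median difference was −0.36, against −0.05 for all bright probe sets. For SDHC 210131_x_at the difference was −0.97, where the untreated change was 0.85. How much the untreated arrays contribute was not tested. No member and no probe set passed in limma (0%), but 23 members had an unadjusted p under 0.05, all lower, which is 21.3%, against 6.31% of all probe sets and 12.8% of the bright ones. Without P/C 24 h replicate 1 it was 12 members and a median of −0.23, without P/C 8 h replicate 3 8 members, without untreated 8 h replicate 3 8 members, without untreated 24 h replicate 2 14 members, and without P/C 24 h replicate 3 38 members. The effect of P at 24 h against 8 h passed for no member and no probe set in limma (0%), with 7 members at an unadjusted p under 0.05 (6.48%, against 7.11% of all probe sets and 13.8% of the bright ones). The bright members had a median of −0.15, against −0.13 for all bright probe sets.

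The genes that make and supply the respiratory chain were looked at beside it, from lists of the pathway written with earlier results known. Their counts with P are to be read against the 4.35% of all and 13.7% of bright probe sets that fell, and the 1.66% and 2.88% that rose. Counts at an unadjusted p under 0.05 with P/C are to be read against the shares of all and of bright probe sets given for P/C above. With P at 24 h 4 of 33 probe sets for regulators of mitochondrial transcription and biogenesis fell and none rose at an adjusted p of at most 0.05. TFAM, which packs mitochondrial DNA and starts its transcription, read 8.71 and 9.13 in untreated cells, 7.28, 7.81 and 7.09 with P, 8.73, 8.99 and 8.71 with C, and 8.20 and 7.60 with P/C (203177_x_at). All P arrays lay below both untreated ones, with a log2 fold change of −1.53 ± 0.32 (adjusted p = 0.0126), and its dim probe set gave −2.17 (adjusted p = 0.00975). MTERF3, a member of the mitochondrial termination factor family, had −1.27 (limma adjusted p = 0.0205). TFB2M, an initiation factor of mitochondrial transcription, had −0.81 (limma adjusted p = 0.0372). With P/C 1 of the 33 fell, a dim probe set of GABPB1, part of the GABP factor.

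Of 33 probe sets for the import of proteins into mitochondria 7 fell with P and none rose, and 12 of the 33 had positive values. TIMM17A, part of the inner membrane channel, had −1.43 (adjusted p = 0.0142) and −1.41 (adjusted p = 0.00309) at its 2 probe sets. The chaperones HSPA9 (−1.41, adjusted p = 0.00418) and HSPE1 (−1.16, adjusted p = 0.0126), the exchange factor GRPEL1 (−0.71 and −0.91) and TIMM8B (−1.08) fell too. HSPE1 was the call with P/C (−1.19, adjusted p = 0.0438). Of 64 probe sets for mitochondrial ribosomal proteins 12 fell and none rose with P, 5 of them among the 39 bright ones (12.8%, against the 13.7% of all bright probe sets that fell). None passed with P/C, where 15 (23.4%) had an unadjusted p under 0.05, all lower, a share between those of all and of bright probe sets. MRPL22 read 8.71 and 8.55 in untreated cells and 7.52, 7.62 and 7.45 with P (−1.10, adjusted p = 0.00852).

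Of 30 probe sets for assembly factors of the respiratory chain 4 fell and 1 rose with P. None passed with P/C, where 6 (20%) had an unadjusted p under 0.05. HCCS, which attaches heme to cytochromes c and c1, had −0.90 (adjusted p = 0.0267), COX11, which delivers copper to complex IV, −0.62 (adjusted p = 0.0158), and TMEM70, which helps build complex V, −0.70 (adjusted p = 0.0153). The remaining fall was that of the dim NDUFAF7, and the rise was ECSIT, of complex I assembly (dim, 0.60). Of 29 probe sets for the tricarboxylic acid cycle and pyruvate dehydrogenase 3 fell with P, all dim, led by IDH3A (−1.82, limma adjusted p = 0.00373). None passed with P/C, where 8 (27.6%) had an unadjusted p under 0.05. Of 16 for carriers and channels 3 fell with P, both probe sets of VDAC3, a channel of the outer membrane (−0.55 and −1.96), and ATP5IF1, and VDAC3 208845_at fell with P/C (−0.66, adjusted p = 0.0472).

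The bright probe sets of these lists had medians with P of −0.55 for transcription and biogenesis (3 of 8 past the adjusted p), −0.48 for import (7 of 19), −0.28 for assembly (3 of 10), −0.25 for ribosomal proteins (5 of 39), −0.18 for carriers (3 of 9) and 0.13 for the tricarboxylic acid cycle (0 of 17). For the bright members, which include 3 probe sets of genes that are not subunits, they were −0.06 and 5 of 83. ATP5IF1 is counted among these 5 and also among the 3 of the carriers. The median of all bright probe sets was −0.14, and 2.88% of them rose and 13.7% fell past the adjusted p. Differences between the lists were not tested. With P/C the order was another, with medians of −0.36 for transcription and biogenesis, −0.26 for ribosomal proteins and −0.20 for the bright members. The medians were −0.15 for assembly, −0.14 for import, −0.13 for carriers and −0.02 for the tricarboxylic acid cycle. Without untreated 24 h replicate 2 the calls of the regulator, import, ribosomal, assembly and carrier lists went to 0, with medians over all their probe sets of −0.14 and −0.22 for regulators and import, and the dim IDH3A was the 1 call left in the tricarboxylic acid cycle.

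**Figure D5:**
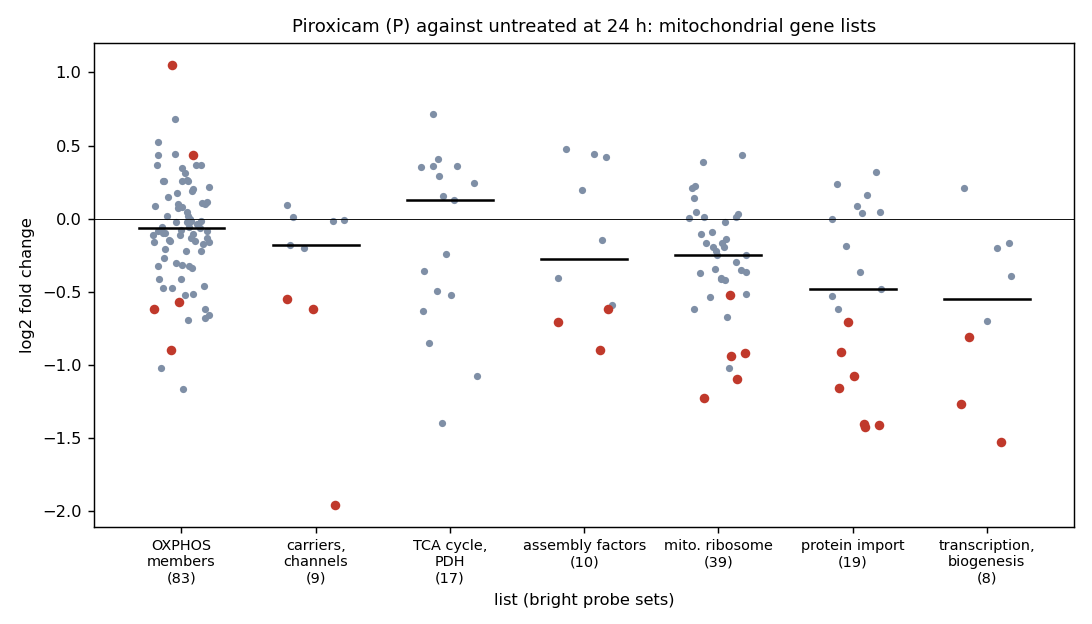
The log2 fold change with P at 24 h (vertical) of the bright probe sets of 7 lists (horizontal, number of probe sets in brackets), with those past an adjusted p of 0.05 in red and medians as black bars. The members scatter around −0.06, and the medians of import and of transcription and biogenesis lie at −0.48 and −0.55.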

How the data were processed

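The 18 HGU133A arrays held RNA from a single cell line. The authors removed outlying arrays and deposited GCRMA values, which are log2 signals corrected for background and normalized between arrays. No version of GCRMA was found in the labels or methods. Groups and replicate numbers came from the labels. The study calls its replicates biological, and p-values measure the spread between these arrays. The number of arrays limits the precision.

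Members and gene lists were chosen with earlier results of these data known. Gene names came from GEO's annotation of the platform, where 19065 have 1 symbol, 1043 several and 2107 none. Without the 68 controls, limma 3.58.1 (R 4.3.3) was fitted to 22215 probe sets, with 1 mean per group over all 18 arrays, for 12 comparisons, two-sided, adjusted by the Benjamini-Hochberg method (10 residual and 3.38 prior degrees of freedom). Probe sets with an adjusted p up to 0.05 were counted, and counted again if they also changed by 1 or more on the log2 scale. The study's filter (an IQR of 0.25 or more, and 100 or more signal units on 25% of arrays) removes steady probe sets and was an alternative. Applied here to the 18 arrays, it keeps 38 members of 3057 probe sets. The paper reports that more probe sets were kept, so its own selection was not reproduced. The name stands here for these thresholds alone. The fit was tested on simulated data.

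Named were members past the adjusted p, CYCS, CYC1, COX4I1 and the SDH genes, and the bright members with the largest and smallest changes of each complex; others in the text were chosen after their values were seen. No 2 arrays shared more than 3 identical values. At 8 h, arrays with the same number deviated together (r of 0.20 to 0.65 in 12 pairs). With 2 arrays in a group the deviations mirror each other, so each r is shared by 2 of these pairs. The 8 h numbers were taken to pair the arrays, as a check of these data and not from a label. At 24 h r was −0.22 to 0.39, and the numbers were not taken to pair them. The main fit used no pairing, so the p-values and counts given for 8 h leave the pairing out. Alternatives covered 30 settings. The transcript of p53 is not analysed here.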

Additional observations from a re-analysis of the deposited data

How the results depend on the processing

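Member counts, member medians and the 12 called changes were recomputed under alternatives of filter, normalization, centring, spread, samples and pairing, and no direction of these 12 reversed. Values of uncalled genes, the IQR shares and the motif shares were not. Members past the adjusted p alone with P at 24 h went from 7 to 12 with array weights and to 11 without replicate 1 of P/C and of C at 24 h, and ranged from 0 to 5 when single arrays were left out. With the 2-fold limit they went from 1 to 2 under the study's filter and from 0 to 2 without single arrays. Of the 7 calls with P, 4 were kept with quantile normalization (the others had a limma adjusted p of 0.0598 to 0.144). With bright centring, with an intensity trend and with only the arrays of the comparison 3 were kept each. NDUFB11 was lost under the study's filter (limma adjusted p = 0.0643). The member median turned from −0.06 to 0.11 with the arrays centred on bright probe sets, which moved the median of all probe sets to 0.20.

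For P/C at 24 h, the 5 members past the adjusted p became 2 under the study's filter, quantile normalization, array weights or 1 probe set per gene, 3 with an intensity trend or without both arrays named above, 1 with bright centring, 0 with only the arrays of the comparison, and 0 to 3 without single arrays. The 1 member past the 2-fold limit became 0 with an intensity trend, with only the arrays of the comparison or with 1 probe set per gene, and 0 to 2 without single arrays. The replicate block, where numbers share nothing known at 24 h, also gave 0 and 0 for P/C, while with P 6 of the 7 calls were kept. It changed no call at 8 h.

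For P/C against P, 1 member passed the adjusted p with quantile normalization and with bright centring, and 0 to 3 without single arrays (0 to 1 past the 2-fold limit). For P/C against C it was 1 without both arrays, 0 to 1 without single arrays (0 to 1 past the 2-fold limit), and the median went from −0.16 to 0.0063 without both. For the departure from the sum it was 0 to 2 without single arrays (0 to 1 past the limit). Leaving out an array of a pair assumes that the lone array varies like other groups.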
